A study of Mus musculus with 16 samples.

Results

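The genes that build, load and control the MHC class II molecule were followed in mouse lung: the class II chain genes H2-Aa, H2-Ab1 and H2-Eb1, the invariant chain gene Cd74, the peptide-exchange genes H2-DMa and H2-DMb1, their inhibitors H2-Oa and H2-Ob, and the transactivator gene Ciita. They were chosen by name, as 9 of the 53647 genes in the expression table, and all 9 passed the filter on low values (at least 1 TPM, a level scaled for gene length and for its library's total, in at least 4 libraries) that left 17003 genes for testing. The study measured bulk RNA-seq of whole mouse lung in 16 libraries, 4 from each of 4 groups. In the Ad-ATP12A group the lungs received bleomycin, the agent used to induce fibrosis, together with a vector labelled Ad-ATP12A. In the Ad-GFP group they received bleomycin together with a vector labelled Ad-GFP, in the bleomycin group bleomycin alone, and the control group is labelled only as control. Each group had 2 libraries in batch 1 and 2 in batch 2, where batch is the label's own word, and libraries are called here by batch and replicate (b1r2 is replicate 2 of batch 1). The labels used here give no strain, sex, age, dose or time, and they do not say that replicates came from separate animals, so p-values measure the spread between these libraries.

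An MHC class II molecule is a pair of chains, alpha and beta, that displays peptides from ingested or internal vesicular protein to CD4+ T cells. In the endoplasmic reticulum the new pair binds the invariant chain, which blocks the peptide groove and steers the complex to acidic vesicles, where cysteine proteases such as cathepsin S trim the chain down to a short remnant. The DM heterodimer then releases that remnant and edits the peptides bound, and the DO heterodimer, known mainly from B cells, thymic epithelium and some dendritic cells, binds DM and restrains it. CIITA does not bind DNA itself but is recruited by factors assembled on the X and Y boxes upstream of class II genes, and in many cells interferon gamma induces it. In lung, dendritic cells, B cells, macrophages and alveolar type 2 epithelial cells are known to express class II genes.

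The X and Y boxes can be looked for in the promoters, and the stretches are shown because the members whose promoters hold a like pair of short motifs did not all move alike across the libraries. RefSeq windows of 250 bases before to 50 after the start site (build GRCm38.p6, older than the build of the expression table) were found for 6 of the 9 members, and those of H2-Ab1, Cd74 and Ciita were not used here. In 5 of these 6 members a GNAAC motif stood 25 to 30 bases before an ATTGG motif, the core of the Y box, on the gene's strand. Capitals mark both motifs and, in H2-Eb1 and H2-DMb1, the ACNGATG motif that shares the AC of GNAAC.
H2-Aa, chr17:34287857-34287914, minus strand: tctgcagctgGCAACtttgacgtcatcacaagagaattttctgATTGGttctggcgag
H2-Eb1, chr17:34305766-34305822, plus strand: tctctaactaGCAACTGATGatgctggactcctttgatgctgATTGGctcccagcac
H2-DMb1, chr17:34153087-34153144, plus strand: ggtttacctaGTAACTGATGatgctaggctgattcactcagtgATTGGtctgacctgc
H2-Oa, chr17:34092293-34092350, plus strand: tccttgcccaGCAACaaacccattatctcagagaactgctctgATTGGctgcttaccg
H2-Ob, chr17:34238808-34238862, plus strand: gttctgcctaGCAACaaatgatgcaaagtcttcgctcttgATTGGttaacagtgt

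The spacing between the motifs was 28 bases in H2-Aa, H2-DMb1 and H2-Oa, 27 in H2-Eb1 and 25 in H2-Ob. Among all 32851 windows of this length in the table, searched on both strands, 1.04% held that pair. ACNGATG alone was in 9.85% of windows and ATTGG alone in 37.4%, and ACNGATG with ATTGG at 15 to 30 bases was in 0.137%, H2-Eb1 and H2-DMb1 among them. The GNAAC pair was chosen after these windows had been read, so its share among the members is a description. In H2-DMa no such pair stood in either of its windows.

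All 16 libraries carried lung epithelial transcripts, and the vector's gene set the Ad-ATP12A group apart from the other groups. Atp12a was at 2.96 to 29.0 TPM in Ad-ATP12A libraries, at 0 to 0.05 TPM in Ad-GFP, 0 to 0.20 TPM in bleomycin and 0 to 0.08 TPM in control libraries. Scgb1a1, the club cell marker, was under 1000 TPM in 3 libraries (Ad-GFP b1r1, bleomycin b2r2 and control b2r1). Xist was at 10 TPM or more in 3 Ad-ATP12A libraries and in 1 library each of Ad-GFP, bleomycin and control, so the groups were not balanced for it. The table holds no read counts, so depth is unknown. In whole-lung RNA, fewer cells of a type and less RNA per cell cannot be told apart.

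The 9 genes differed widely in level. Over the 16 libraries Cd74 ranked between 28 and 68 among the tested genes by TPM, H2-Aa between 67 and 169, and H2-Eb1 and H2-Ab1 between 77 and 271. H2-DMa and H2-DMb1, the alpha and beta subunits of DM, lay near rank 1202 and 1317 at the median. H2-Ob had a median rank of 5196, Ciita of 7594 and H2-Oa of 9739. Together the 9 genes took 0.315% to 0.702% of each library's TPM. The partners of a pair kept a narrow ratio: H2-Aa to H2-Ab1, the alpha and beta chains of the I-A molecule, lay between 1.37 and 1.66 in all 16 libraries, and H2-DMa to H2-DMb1 between 0.865 and 1.16. H2-Oa to H2-Ob ranged more widely, from 0.235 to 0.664. H2-Eb1 encodes the beta chain of the second classical molecule, I-E, and its alpha chain, listed as the pseudogene H2-Ea-ps, stayed between 0 and 0.29 TPM in every library. Class II genes are polymorphic and the strain is not given here, and how well reads of each allele were counted was not tested.

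**Figure D1:**
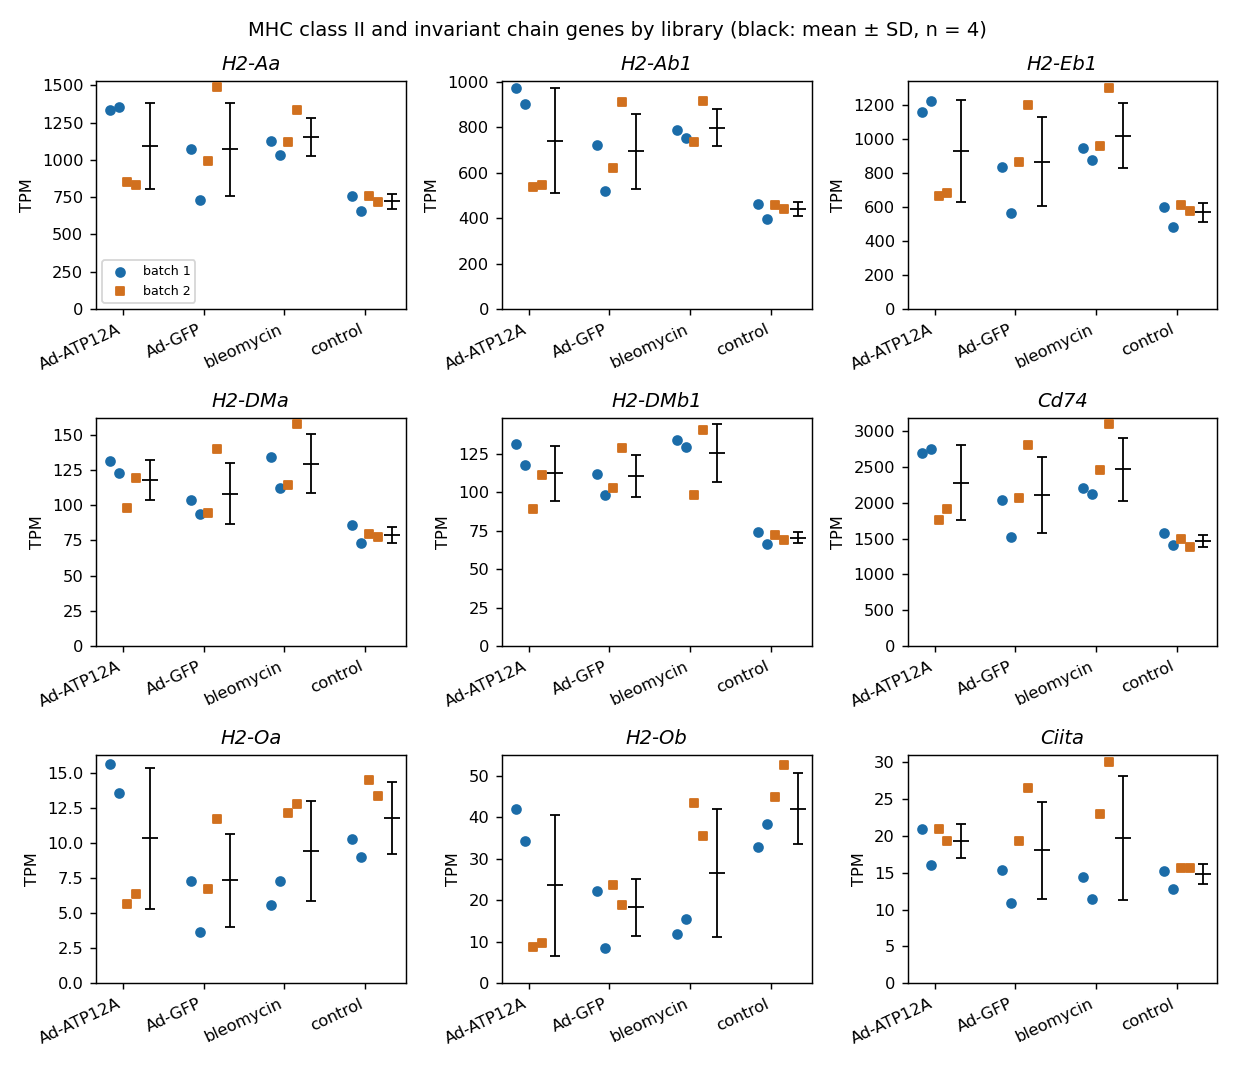
TPM of each of the 9 genes in each library (y axis, starting at 0), by group, with circles for batch 1 and squares for batch 2; black bars are the group mean ± SD over 4 libraries. For H2-Aa the bleomycin libraries lie between 1036 and 1333 TPM, above the control libraries at 654 to 758 TPM, while the Ad-ATP12A libraries split by batch.

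After bleomycin alone, 6 of the 9 genes rose against control: the 3 classical chains, the invariant chain and both DM subunits, each 1.59-fold to 1.81-fold. The DO genes and Ciita did not pass the test. H2-Ab1 was at 786 and 753 TPM in batch 1 and 735 and 915 TPM in batch 2 of bleomycin lungs, against 462 and 398 TPM in batch 1 and 458 and 441 TPM in batch 2 of control lungs. The lowest bleomycin library stood well above the highest control library. The log2 fold change was 0.85 (SE 0.204, on the log2(TPM + 1) scale used throughout) with an adjusted p of 0.0121 by limma. H2-Aa was at 1125 and 1036 TPM in batch 1 and 1120 and 1333 TPM in batch 2 of bleomycin lungs, against 757, 654, 758 and 715 TPM in control lungs. H2-Eb1 was at 948, 877, 962 and 1303 TPM in bleomycin lungs, against 600, 486, 610 and 580 TPM in control lungs. The bleomycin and control ranges of both genes were apart, with log2 fold changes of 0.67 (SE 0.210, adjusted p 0.0390) for H2-Aa and 0.83 (SE 0.243, adjusted p 0.0298) for H2-Eb1.

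Cd74, the invariant chain, was the most abundant member in every library. It was at 2204 and 2119 TPM in batch 1 and 2457 and 3092 TPM in batch 2 of bleomycin lungs, against 1572, 1412, 1496 and 1386 TPM in control lungs. The log2 fold change was 0.74 (SE 0.200, adjusted p 0.0216), again with no overlap of the ranges. H2-DMa was at 134, 112, 114 and 157 TPM in bleomycin lungs, against 86.2, 72.8, 79.6 and 77.3 TPM in control lungs. H2-DMb1 was at 134, 129, 98.2 and 141 TPM in bleomycin lungs, against 74.1, 66.1, 72.3 and 69.2 TPM in control lungs. Both DM subunits rose, H2-DMa by 0.69 (SE 0.144, adjusted p 0.00590) and H2-DMb1 by 0.81 (SE 0.132, adjusted p 0.00154) on the log2 scale.

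Read against all genes, 13.2% of the 17003 tested were called higher and 5.61% lower in bleomycin lungs at an adjusted p under 0.05, and the median log2 fold change was 0.69 over the 9 members and 0.05 over all genes tested. The DM calls held under every alternative tried but batch 2 alone. Without the 3 libraries low in Scgb1a1, a choice made after seeing the data, 2 members were called (H2-DMa and H2-DMb1), with adjusted p of 0.153 for H2-Aa, 0.0705 for H2-Ab1, 0.134 for H2-Eb1 and 0.119 for Cd74, and all 4 stayed higher in bleomycin lungs. The count was 3 without control b1r2 and 3 without bleomycin b2r2, where H2-Aa, H2-Eb1 and Cd74 were lost. H2-Aa was also lost without any other 1 of the 8 bleomycin and control libraries (adjusted p 0.0531 to 0.109 over all 8), and H2-Eb1 without bleomycin b1r1, bleomycin b1r2 or control b1r1 (0.0522 to 0.0677).

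**Figure D2:**
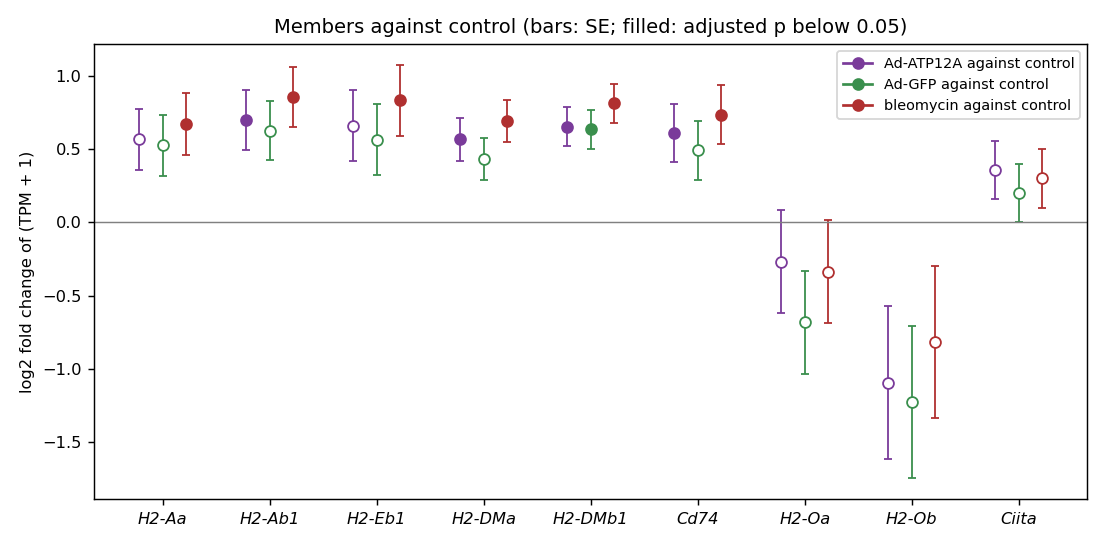
Log2 fold change of TPM + 1 (y axis) of each gene in Ad-ATP12A, Ad-GFP and bleomycin lungs, each against the same 4 control libraries; bars are the standard error and filled circles have an adjusted p below 0.05. The 6 genes of the classical chains, invariant chain and DM lie above 0 in all 3 comparisons and H2-Oa and H2-Ob below it, with no DO gene called.

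The DO genes, whose product restrains DM, did not follow the chains. H2-Ob was at 11.8 and 15.4 TPM in batch 1 and 43.5 and 35.6 TPM in batch 2 of bleomycin lungs, against 32.8 and 38.3 TPM in batch 1 and 44.8 and 52.7 TPM in batch 2 of control lungs. H2-Oa was at 5.59, 7.29, 12.1 and 12.8 TPM in bleomycin lungs, against 10.3, 9.01, 14.5 and 13.4 TPM in control lungs. The ranges overlapped for both, and within each batch every bleomycin library was below both control libraries for each gene. The log2 fold changes were -0.81 for H2-Ob (SE 0.519, adjusted p 0.291) and -0.34 for H2-Oa (SE 0.351, adjusted p 0.535). The ratio of H2-Ob to H2-DMb1 ranged from 0.0883 to 0.442 in bleomycin libraries and from 0.442 to 0.761 in control libraries.

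Ciita, the regulator known to switch on the class II chains, was low and differed by batch. It was at 14.5 and 11.4 TPM in batch 1 and 23.0 and 30.01 TPM in batch 2 of bleomycin lungs, against 15.3 and 12.8 TPM in batch 1 and 15.6 and 15.6 TPM in batch 2 of control lungs. The log2 fold change over both batches was 0.30 (SE 0.198, adjusted p 0.308). Within batch 1 it was -0.11 and within batch 2 0.71, and this difference between batches had an unadjusted p of 0.0195 and an adjusted p of 0.180 by limma. Of all genes, 0.0647% had a bleomycin effect that differed between batches at an adjusted p under 0.05, and no member was among them. The log2 difference of H2-Ab1 within batch 1 was 0.84, from 2 against 2 libraries. The part of Ciita in the rise of the chains was not tested.

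In lungs given bleomycin and the Ad-GFP vector, 1 member was called against control, H2-DMb1. It was at 112, 98.2, 103 and 129 TPM in Ad-GFP lungs, against 74.1, 66.1, 72.3 and 69.2 TPM in control lungs, a log2 fold change of 0.64 (SE 0.132, adjusted p 0.00854). The background was 9.16% of genes called higher and 4.52% lower. H2-Ab1 was at 723, 520, 620 and 909 TPM in Ad-GFP lungs, against 462, 398, 458 and 441 TPM in control lungs, with a log2 fold change of 0.63 and an adjusted p of 0.0563. H2-DMa was at 103, 94.0, 94.7 and 140 TPM in Ad-GFP lungs, against 86.2, 72.8, 79.6 and 77.3 TPM in control lungs, with a log2 fold change of 0.43 and an adjusted p of 0.0616. Both ranges were clear of the control range although neither gene was called. The share of all tested genes with ranges apart was not counted, so a range clear of control is only a description throughout. At an unadjusted p under 0.05, 6 members were higher and 1 lower, where 30.1% of all genes passed in either direction. Without Ad-GFP b1r2 the count of called members was 2, as it was without Ad-GFP b2r1 or without Ad-ATP12A b1r1.

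H2-Aa, at 1070, 730, 995 and 1487 TPM in Ad-GFP lungs, overlapped the control range of 654 to 758 TPM through the single library b1r2. That library was the lowest of the 4 Ad-GFP libraries for each of the 9 genes. Cd74 was at 2044, 1526, 2060 and 2804 TPM in Ad-GFP lungs, with an adjusted p of 0.116, and H2-Eb1 at 838, 567, 866 and 1203 TPM, with an adjusted p of 0.135. H2-Ob was at 22.3, 8.54, 23.8 and 18.9 TPM in Ad-GFP lungs, all below the lowest control library at 32.8 TPM. Its log2 fold change of -1.23 (SE 0.519) had an adjusted p of 0.130. H2-Oa, at 7.32, 3.64, 6.75 and 11.7 TPM in Ad-GFP lungs, overlapped the control libraries, and so did Ciita at 15.4, 11.0, 19.4 and 26.5 TPM.

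In lungs given bleomycin and the Ad-ATP12A vector, 4 members rose against control: H2-Ab1, Cd74, H2-DMa and H2-DMb1. H2-Ab1 was at 974 and 901 TPM in batch 1 and 536 and 547 TPM in batch 2 of Ad-ATP12A lungs, against 462, 398, 458 and 441 TPM in control lungs. Cd74 was at 2693 and 2755 TPM in batch 1 and 1755 and 1918 TPM in batch 2 of Ad-ATP12A lungs, against 1572, 1412, 1496 and 1386 TPM in control lungs. No Ad-ATP12A library overlapped the control range for either gene, but the 2 batches were far apart. The log2 fold changes were 0.70 (SE 0.204, adjusted p 0.0266) for H2-Ab1 and 0.61 (SE 0.200, adjusted p 0.0415) for Cd74. H2-DMa was at 131, 123, 98.3 and 119 TPM and H2-DMb1 at 132, 118, 88.9 and 111 TPM in Ad-ATP12A lungs, with log2 fold changes of 0.57 (adjusted p 0.0141) and 0.65 (adjusted p 0.00456). Both DM subunits were above every control library in both batches. The background was 13.3% of genes called higher and 9.49% lower.

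H2-Aa, at 1332, 1358, 855 and 835 TPM in Ad-ATP12A lungs, and H2-Eb1, at 1159, 1224, 664 and 685 TPM, were also above every control library but missed the threshold, with adjusted p of 0.0658 and 0.0641. The 4 calls fell to 2 without the 3 libraries low in Scgb1a1, and to 2 with a term for Xist in the model, where H2-Ab1 had an adjusted p of 0.0512 and Cd74 of 0.0857. Leaving out Ad-ATP12A b1r1, Ad-ATP12A b1r2, control b1r1 or control b1r2 also gave 2, with H2-Ab1 and Cd74 lost. Cd74 was lost as well without Ad-GFP b1r1, bleomycin b1r1, bleomycin b1r2, control b2r1 or control b2r2 (adjusted p 0.0506 to 0.0813). H2-Aa and H2-Eb1 were called without Ad-GFP b1r2 or Ad-GFP b2r2, and H2-Eb1 without Ad-ATP12A b2r1. Ciita was at 21.0, 16.1, 21.0 and 19.3 TPM in Ad-ATP12A lungs, each above the highest control library at 15.6 TPM, with a log2 fold change of 0.36 (SE 0.198) and an adjusted p of 0.201.

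H2-Ob was the member whose response to Ad-ATP12A and bleomycin differed most between the batches. It was at 42.1 and 34.2 TPM in batch 1 and 8.79 and 9.64 TPM in batch 2 of Ad-ATP12A lungs, against 32.8 and 38.3 TPM in batch 1 and 44.8 and 52.7 TPM in batch 2 of control lungs. In batch 1 the Ad-ATP12A and control libraries overlapped, and in batch 2 the Ad-ATP12A libraries were far below. The within-batch log2 differences were 0.10 and -2.28, and their difference of -2.38 (SE 0.460) had an adjusted p of 0.0357, in a comparison where 2.8% of genes passed. H2-Oa moved the same way, at 15.7 and 13.6 TPM in batch 1 and 5.68 and 6.40 TPM in batch 2 of Ad-ATP12A lungs, against 10.3 and 9.01 TPM in batch 1 and 14.5 and 13.4 TPM in batch 2 of control lungs, with a difference between batches of -1.64 and an adjusted p of 0.0504. The chains had smaller differences between batches, -0.96 for H2-Eb1 (adjusted p 0.0904) and -0.86 for H2-Ab1 (adjusted p 0.0947). For Ad-GFP against control 2.36% of genes passed this test and no member did. The H2-Ob call was lost without any 1 of 9 libraries (control b1r1, b1r2 and b2r2, bleomycin b1r1 and b1r2, and all 4 of Ad-ATP12A), where the adjusted p ran from 0.0571 to 0.136 and the difference from -2.52 to -2.23.

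Neither vector comparison within bleomycin-treated lungs gave a call. For Ad-GFP against bleomycin alone, all 9 log2 fold changes were between -0.41 and -0.10, each with an adjusted p of 1.00, and 0 members had an unadjusted p under 0.05. Over all genes 0.00588% were called higher and 0.00588% lower, and 0% differed between batches. For Ad-ATP12A against Ad-GFP the 9 log2 fold changes were between 0.02 and 0.42, each with an adjusted p of 0.999 and 0 with an unadjusted p under 0.05. There 0.00588% of genes were called higher, 0% lower, and 0% differed between batches. The 95% intervals were wide: for H2-Ab1 in Ad-ATP12A against Ad-GFP, -0.37 to 0.51, and for H2-Ob, -0.98 to 1.25.

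That near-zero average joined opposite values in the batches. In batch 1 all 9 genes were higher in Ad-ATP12A than in Ad-GFP lungs, by 0.24 (H2-DMb1) to 1.39 (H2-Ob) on the log2 scale, and in batch 2 all 9 were lower, by -0.09 (H2-DMa) to -1.12 (H2-Ob). H2-Eb1, for example, was at 1159 and 1224 TPM in Ad-ATP12A lungs of batch 1, against 838 and 567 TPM in Ad-GFP lungs of batch 1. In batch 2 it was at 664 and 685 TPM in Ad-ATP12A lungs, against 866 and 1203 TPM in Ad-GFP lungs. The 2 groups did not overlap in either batch, with opposite order. The test of the difference between batches gave unadjusted p of 2.04e-04 for H2-Ob, 6.66e-04 for H2-Oa, 9.34e-04 for H2-Eb1, 0.00280 for H2-Ab1, 0.00304 for H2-Aa and 0.00362 for Cd74, and adjusted p of 0.578 to 0.761 over the 9 members. Of all genes 6.29% had an unadjusted p under 0.05 in this test. Batches hold 2 libraries a group, so each within-batch value rests on 4 libraries. The share of all genes with this reversal of sign was not counted. Members also varied together over the 16 libraries (r 0.988 for H2-Aa with H2-Eb1, 0.878 for H2-Oa with H2-Ob), so the 9 are not separate observations.

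**Figure D3:**
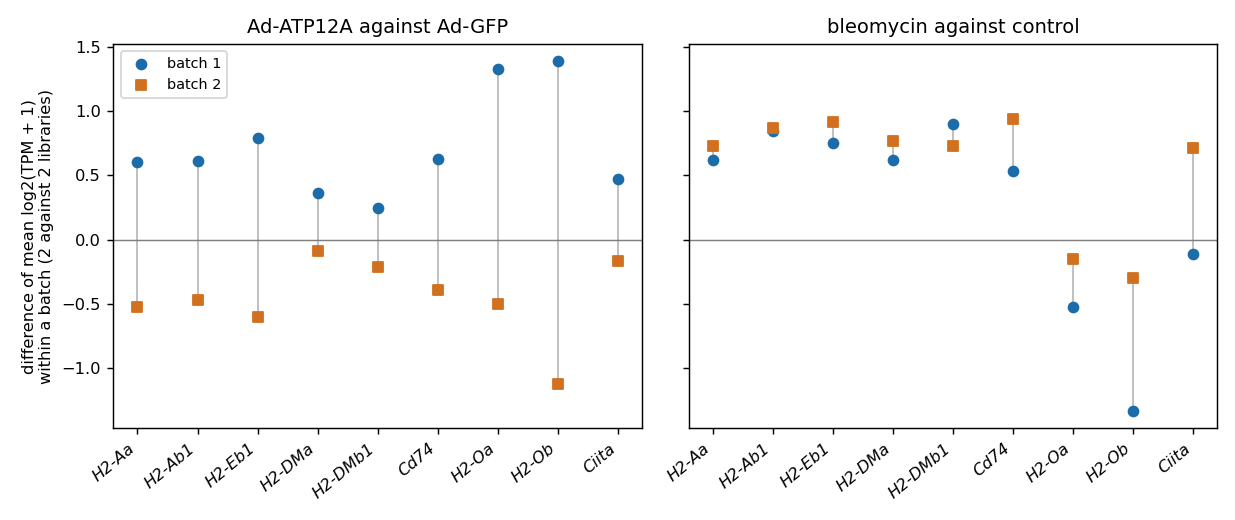
Difference of mean log2(TPM + 1) within each batch (y axis, 2 against 2 libraries) for Ad-ATP12A against Ad-GFP lungs on the left and bleomycin against control lungs on the right, circles for batch 1 and squares for batch 2. On the left every gene is above 0 in batch 1 and below it in batch 2; on the right the chains, Cd74 and both DM genes are above 0 in both.

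Between batches, Ciita was the 1 member called. Over all 4 groups, batch 2 was higher than batch 1 by 0.50 on the log2 scale (SE 0.140, adjusted p 0.0263), and the other 8 members lay between -0.08 and 0.22, none called. The means of Ciita were 20.2 TPM in batch 2 and 18.6 TPM in batch 1 of Ad-ATP12A lungs, and 22.9 TPM in batch 2 and 13.2 TPM in batch 1 of Ad-GFP lungs. They were 26.5 TPM in batch 2 and 12.9 TPM in batch 1 of bleomycin lungs, and 15.6 TPM in batch 2 and 14.0 TPM in batch 1 of control lungs. Of all genes 16.4% were called higher and 2.11% lower in batch 2. The median of all genes in that comparison moved by -0.101 with quantile normalization and by -0.107 with median-ratio scaling, and under either the Ciita call was lost, as it was without bleomycin b1r2, bleomycin b2r2, Ad-GFP b1r2, Ad-GFP b2r2 or the 3 libraries low in Scgb1a1.

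In order of mean level, the chains, Cd74 and the DM genes were highest in bleomycin lungs, then in Ad-ATP12A lungs, then in Ad-GFP lungs and lowest in control lungs. Cd74 averaged 2280 ± 517 TPM in Ad-ATP12A, 2108 ± 526 TPM in Ad-GFP, 2468 ± 440 TPM in bleomycin and 1467 ± 84.5 TPM in control lungs (SD, n = 4 each). H2-Ab1 averaged 740 ± 230 TPM in Ad-ATP12A, 693 ± 166 TPM in Ad-GFP, 797 ± 81.2 TPM in bleomycin and 440 ± 29.3 TPM in control lungs (SD, n = 4 each). The ranges of the 3 bleomycin-treated groups overlapped one another for both genes. H2-Ob averaged 23.7 ± 17.0 TPM in Ad-ATP12A, 18.4 ± 6.86 TPM in Ad-GFP, 26.6 ± 15.4 TPM in bleomycin and 42.1 ± 8.58 TPM in control lungs (SD, n = 4 each), which put control first.

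The proteases and the thiol reductase of the class II route had median log2 fold changes against control of 1.53 in Ad-ATP12A, 1.47 in Ad-GFP and 1.32 in bleomycin lungs, beside 0.57, 0.49 and 0.69 for the 9 members. Of 6 genes listed (Ctss, Ctsl, Ctsb, Ctsd, Lgmn and Ifi30), 5 were called higher and 0 lower in each of the comparisons of Ad-ATP12A, Ad-GFP and bleomycin with control, which share the control libraries. The shares over all genes called higher in these comparisons were 13.3%, 9.16% and 13.2%. Ctss, cathepsin S, which makes the late cuts of the invariant chain, averaged 1770 ± 555 TPM in Ad-ATP12A, 1825 ± 796 TPM in Ad-GFP, 1442 ± 319 TPM in bleomycin and 262 ± 54.9 TPM in control lungs (SD, n = 4 each). Its log2 fold change against control was 2.72 in Ad-ATP12A, 2.70 in Ad-GFP and 2.45 in bleomycin lungs (adjusted p 1.34e-04, 2.82e-04 and 2.63e-04 by limma). Ifi30, the lysosomal thiol reductase that unfolds antigens, had log2 fold changes of 1.28, 0.97 and 1.27 in the same order, each called. Ctsl, cathepsin L, was the member of the list not called, at 0.80, 0.73 and 0.73. Macrophages also express these proteases: the 7 listed interstitial macrophage markers summed to 674 to 2516 TPM in Ad-ATP12A, 456 to 2043 TPM in Ad-GFP, 595 to 1387 TPM in bleomycin and 142 to 202 TPM in control lungs, and 5, 5 and 7 of 7 were called higher. Their part in the result was not tested.

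Of 22 further class II genes and regulators, 19 could be tested. Against control, 2 were called higher in Ad-ATP12A, 0 in Ad-GFP and 2 in bleomycin lungs, with 0 called lower. The shares over all genes called higher were 13.3%, 9.16% and 13.2% in that order, and these counts did not exceed them. Ifngr2, a chain of the interferon gamma receptor, had a log2 fold change of 0.54 in Ad-ATP12A (adjusted p 0.0289) and 0.54 in bleomycin lungs (adjusted p 0.0348). Irf8, a transcription factor of dendritic cells and B cells, had 0.49 in Ad-ATP12A lungs (adjusted p 0.0478), and Spi1, the myeloid factor PU.1, had 1.03 in bleomycin lungs (adjusted p 0.0381). Ifng itself stayed low, at a mean of 1.05 TPM in Ad-ATP12A, 0.758 TPM in Ad-GFP, 0.498 TPM in bleomycin and 0.318 TPM in control lungs. Rfx5, a subunit of the factor that binds the X box, had log2 fold changes of -0.05 in Ad-ATP12A, -0.02 in Ad-GFP and 0.13 in bleomycin lungs, none called.

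H2-DMb2, a near copy of H2-DMb1, was on the same list and did not follow it. H2-DMb2 was at 46.1 and 39.0 TPM in batch 1 and 14.6 and 19.9 TPM in batch 2 of Ad-ATP12A lungs, against 29.9 and 30.4 TPM in batch 1 and 36.7 and 36.3 TPM in batch 2 of control lungs. It split by batch as H2-Ob did, with a difference between batches of -1.54 (adjusted p 0.0426). Reads shared between the 2 copies could have been divided either way by the counting, so the split between H2-DMb1 and H2-DMb2 is uncertain.

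The class I genes, whose products present peptides to CD8+ T cells, gave other counts. Of 9 listed, 7 were called higher in Ad-ATP12A, 5 in Ad-GFP and 0 in bleomycin lungs against control. The shares over all genes were 13.3%, 9.16% and 13.2%. H2-K1, a class I heavy chain, had log2 fold changes of 0.98 (adjusted p 0.00731) in Ad-ATP12A, 0.82 (adjusted p 0.0258) in Ad-GFP and 0.56 (adjusted p 0.0859) in bleomycin lungs. Nlrc5, the class I counterpart of Ciita, had 0.87 (adjusted p 0.0158), 0.72 (adjusted p 0.0484) and 0.30 (adjusted p 0.381) in the same order. No class I gene was called in Ad-GFP against bleomycin or in Ad-ATP12A against Ad-GFP, so these counts do not show that the vectors changed class I genes.

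Of 5 co-stimulation and CD4 T cell genes tested, 4 were called higher in Ad-ATP12A (Cd80, Cd86, Cd4 and Icos), 2 in Ad-GFP and 2 in bleomycin lungs (Cd80 and Cd86 in both) against control, where 13.3%, 9.16% and 13.2% of all genes were. Cd40, the receptor for T cell help, was not called, with log2 fold changes of 0.15, -0.02 and 0.17 in that order. Cd86, a ligand of T cell CD28, had log2 fold changes of 1.31, 1.30 and 1.30. Among 10 dendritic cell markers, 3 were called higher in each comparison, Batf3, Fscn1 and Ccl22, of which Fscn1 and Ccl22 are known from mature dendritic cells. Ccr7, also known from mature dendritic cells, was not called. It averaged 10.1 TPM in Ad-ATP12A, 8.99 TPM in Ad-GFP, 13.1 TPM in bleomycin and 13.0 TPM in control lungs. Fscn1 had log2 fold changes of 2.08 in Ad-ATP12A, 1.79 in Ad-GFP and 2.17 in bleomycin lungs. Clec9a, a marker of the cross-presenting subset, fell by 1.11 on the log2 scale in Ad-ATP12A lungs (adjusted p 0.0452), and Cd209a by 1.58 (adjusted p 0.0427). Both falls were larger in batch 2. Clec9a averaged 11.1 TPM in batch 1 and 4.4 TPM in batch 2, against 15.8 and 16.7 TPM in control lungs. Cd209a averaged 9.93 and 0.895 TPM, against 14.4 and 11.1 TPM. The summed dendritic list lay at 119 to 139 TPM in Ad-ATP12A, 106 to 144 TPM in Ad-GFP, 127 to 185 TPM in bleomycin and 74.9 to 96.4 TPM in control lungs. Fscn1 alone averaged 55.8 ± 16.6 TPM in Ad-ATP12A, 45.8 ± 15.8 TPM in Ad-GFP, 57.9 ± 9.51 TPM in bleomycin and 12.3 ± 3.46 TPM in control lungs (SD, n = 4 each). The other 9 markers summed to 52.3 to 95.6 TPM in Ad-ATP12A, 55.3 to 85.5 TPM in Ad-GFP, 67.5 to 116.8 TPM in bleomycin and 66.4 to 80.1 TPM in control lungs, with overlapping ranges. Zbtb46, a factor of classical dendritic cells, averaged 9.52, 10.2, 11.6 and 13.0 TPM in these groups, and Clec9a and Cd209a also had their highest mean in control lungs. Flt3, Xcr1 and Itgae of the same list went the other way, with their lowest mean in control lungs. In the same order Flt3 averaged 5.1, 5.3, 4.7 and 2.97 TPM. Xcr1 averaged 3.48, 3.14, 2.36 and 1.84 TPM, and Itgae 7.33, 6.98, 6.0 and 3.5 TPM.

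The summed B cell markers varied between libraries much as the DO genes did. The 8 listed markers summed to 179 and 130 TPM in batch 1 and 64.9 and 88.5 TPM in batch 2 of Ad-ATP12A lungs, and to 89.9 and 47.4 TPM in batch 1 and 99.2 and 94.2 TPM in batch 2 of Ad-GFP lungs. They summed to 61.7 and 75.7 TPM in batch 1 and 179 and 182 TPM in batch 2 of bleomycin lungs, and to 156 and 193 TPM in batch 1 and 223 and 236 TPM in batch 2 of control lungs. The libraries low in the sum were those low in H2-Ob. Cd22, an inhibitory receptor of B cells, did not follow the sum in batch 2. It was at 20.8 and 16.8 TPM in batch 1 and at 22.4 TPM or more in both batch 2 libraries of Ad-ATP12A lungs. It was at 28.3 and 26.5 TPM in batch 2 of Ad-GFP lungs, against 22.8 and 28.0 TPM in batch 2 of control lungs. Of the 8 markers, 1 was called lower in Ad-ATP12A (Pax5), 4 in Ad-GFP (Ms4a1, Cd79a, Cd79b and Pax5) and 0 in bleomycin lungs against control, and 0 higher. The shares over all genes called lower were 9.49%, 4.52% and 5.61% in that order. In Ad-ATP12A lungs Pax5 averaged 6.47 TPM in batch 1 and 2.23 TPM in batch 2, against 6.52 and 11.5 TPM in control lungs, so its fall lay in batch 2. Cd79a, part of the B cell receptor, fell by 1.55 in Ad-GFP lungs (adjusted p 0.0161).

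Within the 12 libraries of bleomycin-treated lungs, the log2 level of H2-Ob and the log2 sum of the B cell list had a Pearson r of 0.925 (permutation p 5.0e-05, adjusted 0.0018 over 36 relations of 9 genes with 4 cell type lists) and a Spearman rho of 0.930 (permutation p 6.0e-05, adjusted 0.00216). The r was 0.990 in batch 1 and 0.922 in batch 2, and 0.903 without the 2 libraries farthest from the median. All permutations exchanged libraries freely across groups and batches. Libraries of the same group and batch often lay close together, so the permutation p-values can be too small. H2-Oa had r 0.912 (permutation p 1.1e-04, adjusted 0.00198) and rho 0.909 (permutation p 2.4e-04, adjusted 0.00432), with 0.984 and 0.821 within batches and 0.876 without the 2 farthest. Over all 16 libraries, controls included, r was 0.946 for H2-Ob and 0.876 for H2-Oa. Both DO genes thus followed the summed B cell list in each batch. Cd74 also did within the bleomycin-treated libraries, with r 0.811 (permutation p 0.0017, adjusted 0.0204), rho 0.748 (permutation p 0.00712, adjusted 0.0366), 0.877 and 0.746 within batches and 0.719 without the 2 farthest. H2-Eb1 had r 0.748 (adjusted permutation p 0.0348) and rho 0.762 (adjusted permutation p 0.0366), and 0.633 without the 2 farthest. The other 5 members had r of 0.328 to 0.677 with adjusted permutation p of 0.068 or more. In control lungs the B cell sums were highest and the chains lowest on average, though single libraries overlapped those of other groups. Over all 16 libraries the r of Cd74 was -0.044.

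The relation with the dendritic cell sum depended on Fscn1 for some members, H2-DMa and H2-Ob among them, but Cd74 passed with and without it. Fscn1 made up 25.2% to 56.2% of the sum in bleomycin-treated libraries and 11.4% to 16.9% in control libraries. The control libraries stood apart on the sum, so the relation was read within the 12 bleomycin-treated libraries. H2-DMa had r 0.771 (permutation p 0.00243, adjusted 0.0219) and rho 0.748 (permutation p 0.00701, adjusted 0.0366), with 0.668 in batch 1, 0.912 in batch 2 and 0.641 without the 2 farthest. Cd74 had r 0.745 (permutation p 0.00438, adjusted 0.0315) and rho 0.811 (permutation p 0.00225, adjusted 0.027), with 0.672 and 0.874 within batches and 0.758 without the 2 farthest. The other 7 members had r of 0.440 to 0.666 with adjusted permutation p of 0.068 or more. By rank, H2-Eb1 among them had rho 0.797 (adjusted permutation p 0.0272). Ciita had 0.145 in batch 1 and 0.859 in batch 2. With Fscn1 left out of the sum, a choice made after seeing the data, the r of H2-DMa was 0.574 (permutation p 0.0515) and rho 0.455 (permutation p 0.14), and that of Cd74 0.869 (permutation p 2.5e-04, adjusted 0.00112 over 9 relations) and rho 0.797 (permutation p 0.0032, adjusted 0.0072). H2-Ob then had r 0.910 (permutation p 1.0e-05, the smallest that 100000 permutations can give) and rho 0.930 (permutation p 5.0e-05), against 0.440 with Fscn1 in the sum. Also without Fscn1, H2-Eb1 had r 0.858 and H2-Oa 0.819 (adjusted permutation p 0.00129 and 0.00268). H2-Aa had r 0.778 and H2-Ab1 0.766 (adjusted permutation p 0.00603 for each). H2-DMb1 and Ciita had r 0.521 and 0.506 (adjusted permutation p 0.0928 and 0.0945). With the interstitial macrophage and alveolar type 2 lists no member passed within these 12 libraries. For H2-Ob the r was -0.548 with the macrophage list and 0.593 with the type 2 list (adjusted permutation p 0.156 and 0.123).

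**Figure D4:**
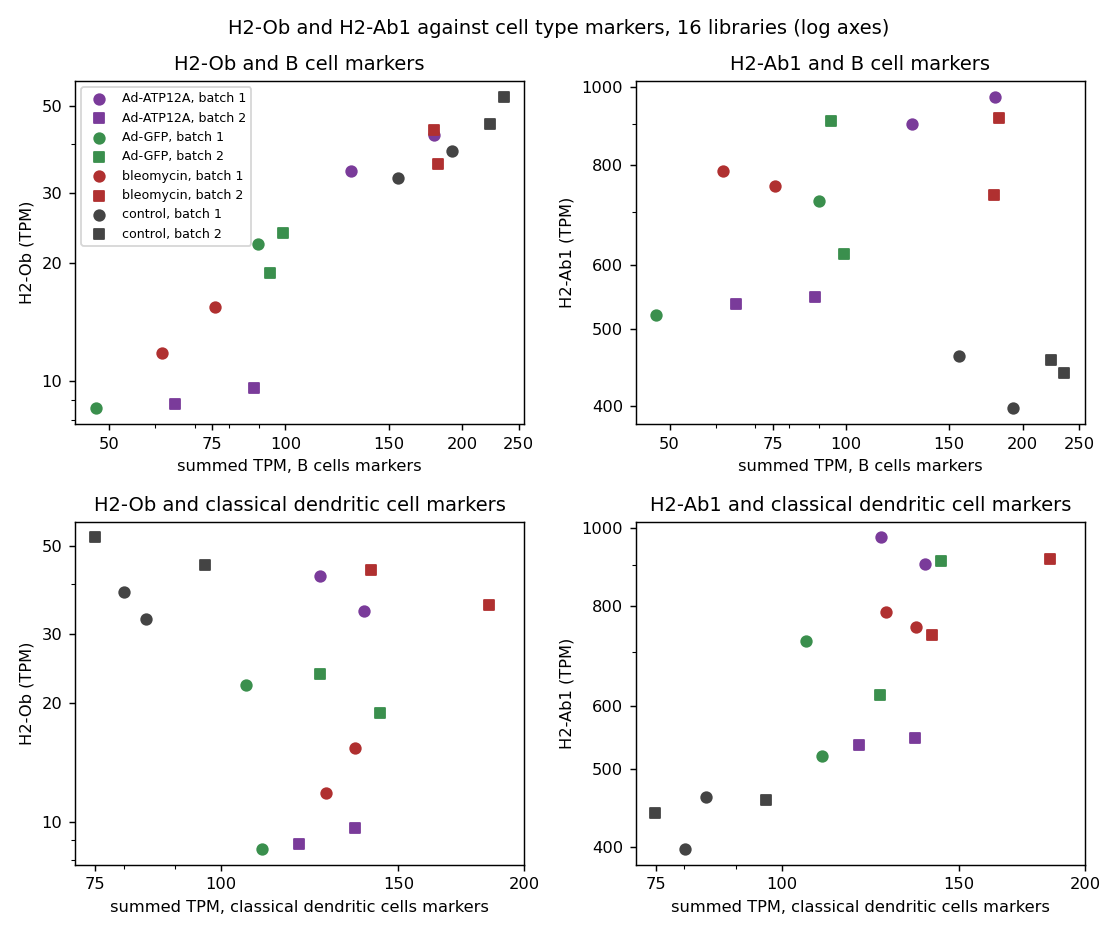
TPM of H2-Ob (left) and H2-Ab1 (right) against the summed TPM of B cell markers (top) and classical dendritic cell markers (bottom) in each of 16 libraries, on log axes, with colour for group and circles for batch 1, squares for batch 2. H2-Ob climbs with the B cell sum from 8.54 TPM in Ad-GFP b1r2, which has the lowest sum, to 52.7 TPM in control b2r2, which has the highest, while for H2-Ab1 the 4 control libraries sit lowest at 398 to 462 TPM despite high B cell sums.

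The members were also ranked by how closely their log2 level followed the mean of the 3 classical chains over the 16 libraries, a description in which group and batch differences are shared by all genes. Cd74 had r 0.980 (rank 4 of 17003, after the 3 chains themselves), H2-DMa 0.904 (rank 9) and H2-DMb1 0.882 (rank 16). Ciita had r 0.566 (rank 1502), H2-Oa 0.317 (rank 5317) and H2-Ob 0.054 (rank 9526). The DO genes therefore stood far from the chains on this measure, and Ciita lay between the DM and the DO genes. H2-Oa and H2-Ob followed each other, with r 0.878. Outside the members the nearest genes were Htr7, Phf11d, Pdcd1lg2, Ifi44, Mthfsd, Ifi27l2a, Irf9 and Il4i1, with r of 0.923 for the first and 0.889 for the last. Pdcd1lg2 encodes PD-L2, a ligand of the T cell receptor PD-1, and averaged 2.38 TPM in Ad-ATP12A, 2.11 TPM in Ad-GFP, 2.73 TPM in bleomycin and 0.728 TPM in control lungs. Irf9, a subunit of the interferon-activated factor ISGF3, averaged 38.6 TPM in Ad-ATP12A, 36.2 TPM in Ad-GFP, 39.2 TPM in bleomycin and 28.5 TPM in control lungs. Htr7 was near the detection filter, at 0.24 to 1.55 TPM over all libraries.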

How the data were processed

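Whole-lung total RNA (0.6 ug, RNeasy mini plus kit, per the labels' protocols) was sequenced in 16 libraries. The authors deposited 1 table of log2(TPM + 1) values, per the file header and the values. STAR, RSEM and the genome builds mm39 and GRCm39 are named, without versions, in the submitters' processing notes. Annotation, strandedness and read counts are not given in the sources used here, so no intervals for counting error are given. The log2 values were turned back to TPM, which came out as multiples of 0.01, and 52093 of 53647 Ensembl identifiers were matched to symbols. TPM is relative: a rise of abundant genes lowers all others.

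The 9 genes and all gene lists were chosen with earlier results of these data known, and all 9 are named in every comparison. A gene of the regulator list is not reported here and was left out of its counts. Listed genes are named where a call, an example or a lost call needs them. Genes reaching 1 TPM in 4 or more libraries were tested with limma 3.58.1 (R 4.3.3, trended prior variance) on log2(TPM + 1), with all 16 libraries, group and batch in the model, two-sided, and Benjamini-Hochberg adjustment over 17003 genes (threshold 0.05). Differences between batches were contrasts of 8 group-by-batch means by limma. The script was tested on simulated data. Correlations used 100000 permutations (two-sided, numpy 2.4.6), with adjustment over 36 relations. These permutations did not keep libraries within their group or batch. The comparisons with control share the 4 control libraries. Pseudocount, filters, scaling, model terms, weights, single batches and each library left out were tried as alternatives.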

Additional observations from a re-analysis of the deposited data

Results flagged for a closer look

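Ciita in control b1r2 was at 12.8 TPM, apart from the other control libraries at 15.3, 15.6 and 15.6 TPM. Its gap to the nearest library was 0.881 of the group's range, above Dixon's critical value for 4 libraries. Of 36 groups of 4 libraries examined, 1 was apart in this way, where chance gives about 1 in 20.

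The response of H2-Ob in Ad-ATP12A against control lungs differed between the batches by -2.38 on the log2 scale (adjusted p 0.0357 by limma). The log2 fold change was 0.10 in batch 1 and -2.28 in batch 2, with 2 libraries a group in each. The summed B cell markers were 179 and 130 TPM in batch 1 and 64.9 and 88.5 TPM in batch 2 of Ad-ATP12A lungs, against 156 and 193 TPM in batch 1 and 223 and 236 TPM in batch 2 of control lungs. Their part in the difference was not tested.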

How the results depend on the processing

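No member called in any comparison changed direction under any alternative. In bleomycin against control, 6 members were called higher; 3 were with no filter on low values, 3 with quantile normalization, 2 without the 3 libraries low in Scgb1a1 and 0 in batch 2 alone, and leaving out 1 library gave 3 to 6. In Ad-ATP12A against control the 4 became 2 with no filter, 2 with quantile normalization, 2 with a term for Xist, 2 without the 3 libraries and 0 in batch 2 alone, where 2 were called lower (H2-Oa and H2-Ob); leaving out 1 library gave 2 to 6. In Ad-GFP against control the 1 became 3 with array weights and 0 in batch 2 alone, and leaving out 1 library gave 1 to 2. H2-Ob was the 1 member called lower in bleomycin and in Ad-GFP against control when the 2 groups alone were fitted, and in bleomycin against control in batch 1 alone. In batch 2 against batch 1 the 1 call became 0 with no filter, 0 with quantile normalization, 0 with median-ratio scaling and 0 without the 3 libraries, and leaving out 1 library gave 0 to 1. The H2-Ob difference between batches had an adjusted p of 0.0694 with no filter. The Xist term and the 3 libraries were chosen after seeing the data, and for other losses of calls the cause was not tested.

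With a replicate block, 2 members were called higher in Ad-GFP against control (H2-DMa added) and no other count moved over 1.5 times. However, H2-Aa in bleomycin (adjusted p 0.0523) and Cd74 in Ad-ATP12A against control (adjusted p 0.0573) were no longer called. Same-numbered libraries did not deviate together (r from -0.158 to 0.212, over 0.1 in 2 of 24 pairs). The 2 libraries of a group and batch deviate from their mean by equal and opposite amounts. Each r therefore occurs for both replicate numbers, and the 24 pairs are not separate values.

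Uncalled log2 fold changes changed sign as follows, among them H2-Ob in Ad-ATP12A against control (-1.09 over both batches) and in Ad-GFP against bleomycin (-0.41). For Ad-ATP12A against Ad-GFP, quantile normalization gave H2-Aa -0.061, H2-DMb1 -0.007 and Cd74 -0.014, the Xist term gave H2-Aa -0.035 and H2-Ob -0.244, and batch 2 alone gave H2-Aa -0.526, H2-Ab1 -0.470, H2-Eb1 -0.597, H2-DMa -0.090, H2-DMb1 -0.211, H2-Oa -0.498, H2-Ob -1.12, Cd74 -0.389 and Ciita -0.162; leaving out 1 library gave H2-Aa -0.143 to 0.227, H2-Ab1 -0.084 to 0.240, H2-Eb1 -0.102 to 0.276, H2-DMb1 -0.057 to 0.117, H2-Ob -0.297 to 0.531 and Cd74 -0.032 to 0.271. In batch 1 alone, Ciita was -0.114 in bleomycin and -0.100 in Ad-GFP against control, H2-Oa 0.553 and H2-Ob 0.096 in Ad-ATP12A against control, and H2-Ob 0.039 and Ciita 0.014 in Ad-GFP against bleomycin, where Ciita was 0.024 without the 3 libraries. Leaving out 1 library gave H2-Oa -0.551 to 0.009 in Ad-ATP12A against control, and H2-Aa -0.335 to 0.035 and Ciita -0.239 to 0.058 in Ad-GFP against bleomycin. For batch 2 against batch 1, quantile normalization gave H2-DMa -0.071; median-ratio scaling gave H2-Aa -0.117, H2-Eb1 -0.079, H2-DMa -0.097 and Cd74 -0.081; leaving out the 3 libraries gave H2-Aa -0.043, H2-Eb1 -0.045, H2-DMa -0.042 and Cd74 -0.027; and leaving out 1 library gave H2-Aa -0.086 to 0.073, H2-Eb1 -0.053 to 0.131, H2-DMa -0.041 to 0.075, H2-Ob -0.016 to 0.355 and Cd74 -0.033 to 0.111.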
